A study of Homo sapiens with 20 samples.

Results

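Transcript levels of a breast cancer cell line were compared before and after a day of estradiol on 8 arrays. The line was SUM44, an established human line from invasive lobular carcinoma. The 4 arrays titled as estradiol (E2) at 24 h, replicates A to D, were set against the 4 arrays titled as 0 h, also A to D, out of 20 arrays in the series. Membership was taken from the sample titles alone and used no measured value. The other 12 arrays hold vehicle at 3 h, E2 at 3 h and vehicle at 24 h, with 4 arrays in each group.

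All cells had first spent 3 days in hormone-deprived medium with charcoal-stripped serum, given as 2% in the series text and 10% in the sample text. The baseline cells were harvested at that point, untreated. The E2 cells then received 1 nM E2 for 24 h, and the vehicle cells received 0.01% ethanol for the same time. Whether the E2 wells also held ethanol was not given in the labels. The treatment field of the 24 h E2 arrays reads baseline, and both the title and the description of each give E2. Replicates are described as biological quadruplicates in the series text. Each group of 4 comes from 1 cell line, so the p-values measure the spread between these cultures and not between tumours.

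Estradiol binds the estrogen receptor, a transcription factor that switches on growth genes and switches off others in luminal breast cancer cells. Estrogen-deprived cells of this kind tend to wait in G1, and the hormone drives them into DNA replication and then mitosis. Replication genes are classically controlled by E2F factors, and mitotic genes by the DREAM and MuvB complexes, which act through a promoter element called the cell cycle homology region (CHR) with CCAAT boxes bound by NF-Y. A late sample compared with vehicle of the same hour measures what the hormone adds, whereas a late sample compared with the starting state measures how far the cells have moved. The second comparison contains both the hormone and a day in culture, which cannot be told apart without the vehicle arrays. Vehicle at 24 h is therefore given beside the main results.

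The promoters of 4 cell cycle genes are shown as examples of these elements. Mitotic genes, unlike most replication genes, moved in vehicle as well, and CHR letters were more frequent in the mitotic promoters. Whether the letters and the move in vehicle are related was not tested. The windows shown are 120 bases ending just before the annotated start, read 5′ to 3′ on the gene's strand from RefSeq promoters of build GRCh38.p14. The first 3 belong to the mitotic genes PRC1 (chr15:90994536-90994655, minus strand), MKI67 (chr10:128126424-128126543, minus strand) and ESPL1 (chr12:53268179-53268298, plus strand). The last belongs to the replication gene MCM6 (chr2:135876444-135876563, minus strand). Capitals mark CHR letters, CCAAT boxes and E2F letters in all 4. The windows were picked for their letters, so they are not typical of either group. The mitotic ones had the largest gains among 21 genes called higher with a CHR match and a CCAAT box in the window. MCM6 had the largest gain of 3 replication genes called higher with an E2F match there. The MCM6 window holds 2 E2F matches and 2 CCAAT boxes and 0 CHR matches, and the mitotic windows hold 0 E2F matches.
PRC1: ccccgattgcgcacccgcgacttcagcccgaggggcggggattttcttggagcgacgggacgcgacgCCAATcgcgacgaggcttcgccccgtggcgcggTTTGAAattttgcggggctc
MKI67: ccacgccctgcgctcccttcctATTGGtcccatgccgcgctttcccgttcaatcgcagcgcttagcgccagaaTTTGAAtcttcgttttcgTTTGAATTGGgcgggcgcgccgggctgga
ESPL1: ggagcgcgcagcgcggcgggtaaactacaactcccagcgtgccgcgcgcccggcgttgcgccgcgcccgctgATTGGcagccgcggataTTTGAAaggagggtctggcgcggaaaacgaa
MCM6: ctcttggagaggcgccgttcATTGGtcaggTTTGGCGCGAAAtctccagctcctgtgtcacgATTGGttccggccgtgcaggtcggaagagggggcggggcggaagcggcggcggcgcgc

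The search covered the 250 bases before each start on both strands, with TTTGAA or TTCGAA as the CHR. The CCAAT box was searched as CCAAT. E2F sites were searched as TTTCGCGC or TTTGGCGC. In MKI67 a CHR match and a CCAAT box share 1 base, and in MCM6 the E2F matches on both strands overlap. Of the 83 measured mitotic genes 70 had a RefSeq promoter in the table used, and 28 of these (40.0%) held both a CHR match and a CCAAT box. Among 43 replication genes with a promoter 2 did (4.65%), and among the 9563 promoters of all genes tested 421 did (4.40%). CHR letters alone were in 47.1% of mitotic promoters, 4.65% of replication promoters and 10.9% of all. CCAAT boxes were common to both groups, in 68.6% and 53.5%, against 35.6% of all. E2F letters were in 4 mitotic (5.71%) and 5 replication promoters (11.6%), against 1.54% of all. The palindromic estrogen response element GGTCANNNTGACC was in 0 of the mitotic, replication or estrogen-induced promoters and in 2 of all 9563. Such matches are letters in a window, and binding was not measured here.

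Array-to-array agreement was high. Correlations over probe sets were 0.998 to 0.999 within groups and 0.990 to 0.991 between the E2 24 h and baseline arrays, and 0 pairs of arrays were identical. The luminal genes ESR1 and GATA3 stood at 13.54 in baseline, near the top of a scale that ended at 14.56. Of 14 stromal markers 9 were dim in both groups, as were 9 of 14 immune or endothelial markers and 5 of 7 basal markers, where dim means a group mean under log2 6.11, which takes in the lowest 25% of genes. Summed over each list, stromal markers ranged from 80.2 to 81.4 in baseline and from 78.9 to 80.6 with E2, and immune and endothelial markers from 78.0 to 78.3 and from 78.3 to 79.8. Basal markers ranged from 38.5 to 39.4 in baseline and from 39.0 to 40.1 with E2. The stromal list moved through SPARC alone, a secreted matrix protein, which fell by 1.20 ± 0.03 (differences are on the log2 scale throughout, and the error is the limma fit's standard error where SD is not written). In the immune and endothelial list LYZ, which is dim (1.04 ± 0.09), and CD34 (0.45 ± 0.06) rose, and CD163, also dim (-0.37 ± 0.10), and PECAM1 (-0.23 ± 0.08) fell. The PECAM1 call was lost without E2 array B or C or baseline array A or C (adjusted p of 0.061 to 0.077 by limma). In a bulk sample, fewer cells of a type and less RNA per cell cannot be told apart.

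The 3′ minus 5′ difference of the ACTB control probe sets, a measure of RNA and labelling quality, was 0.466 ± 0.010 in baseline, 0.397 ± 0.032 in vehicle at 24 h and 0.384 ± 0.014 in E2 at 24 h (SD, n = 4). The baseline arrays overlapped neither 24 h group, while both 24 h groups overlapped each other. For GAPDH the difference was -0.124 ± 0.014, -0.117 ± 0.032 and -0.148 ± 0.013 (SD, n = 4), and baseline overlapped both. These shifts accompany every comparison with baseline below, and their part in the results was not tested.

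After 24 h of E2, 4978 of 11963 genes (41.6%) differed from the starting state at a Benjamini-Hochberg adjusted p under 0.05 by limma. Of these 2293 were higher (19.2%) and 2685 lower (22.4%), and with the arrays centred on their medians the split was 2441 and 2504, so which side is larger is not settled. Most differences were small, with a median size of 0.24 among called genes. At least a 1.5-fold difference, the size used below for a large change, was seen for 402 higher genes (3.36%) and 344 lower genes (2.88%). Vehicle cells had also moved from the starting state by 24 h, with 1426 genes called (11.9%), 903 higher (7.55%) and 523 lower (4.37%). Large changes in vehicle were few, 29 higher (0.242%) and 8 lower (0.0669%). E2 against vehicle of the same hour gave 5469 genes (45.7%), 2572 higher (21.5%) and 2897 lower (24.2%), of which 361 (3.02%) and 398 (3.33%) were large. These comparisons share arrays in pairs, so their values are set side by side.

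Most large late changes were gains or losses by either reference. Among 746 genes with a 1.5-fold or larger change from baseline, 610 changed at least 1.5-fold in the same direction from vehicle as well, 302 of them higher and 308 lower. A further 98 higher and 35 lower genes were called against vehicle in the same direction but by less than 1.5-fold. The mitotic lists, 83 of the 11963 genes tested, held 35 of those 98. Against vehicle 3 were not called, namely KIF18B and ANKRD36B, which were higher than baseline, and CYP1A2, which was lower. Sorting from the other side, 759 genes changed at least 1.5-fold from vehicle. Besides the 610, 143 of these were called in the same direction against baseline by less than 1.5-fold, and 6 were not called against baseline. 0 genes with a large change by one reference were called in the opposite direction by the other. At any size, E2 stood above both references for 1865 genes (15.6%) and below both for 2274 (19%).

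**Figure D1:**
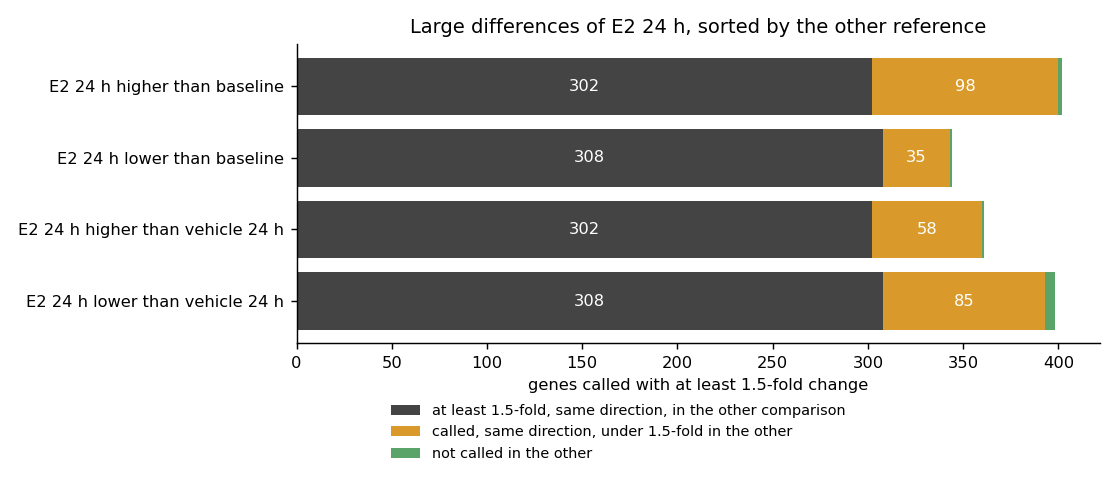
Counts of genes (horizontal axis) that changed at least 1.5-fold at 24 h of E2, sorted by what the other reference showed, with a bar for each direction and reference. Dark segments, 302 higher and 308 lower genes, changed at least 1.5-fold by both references, orange segments were called by less than that in the other comparison (98 and 35 from baseline, 58 and 85 from vehicle), and the thin green ends were not called there.

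The largest gains from the deprived state were in MMP26, PDZK1 and S100A7. MMP26, a secreted matrix metalloproteinase, read 5.13, 5.26, 5.28 and 5.35 in the baseline arrays A to D and 9.47, 9.47, 9.34 and 9.18 in the E2 arrays. Baseline was dim, so no fold is given for its rise of 4.11 ± 0.10, and vehicle at 24 h (5.09 to 5.28) lay where baseline did. PDZK1, a scaffold protein of membrane transporters, read 7.21, 7.94, 7.92 and 7.56 in baseline and 11.59, 11.53, 11.57 and 11.56 with E2. The baseline arrays of PDZK1 spread by an SD of 0.34, against 0.03 with E2, and its rise of 3.90 ± 0.11 is 15-fold. S100A7, a calcium-binding protein of squamous and inflamed epithelium, rose by the same 3.90 with a smaller error of 0.08, from 7.73, 7.92, 7.88 and 7.75 to 11.69, 11.82, 11.69 and 11.69. For all 3 genes the E2 arrays stood far above every baseline and vehicle array, and the limma adjusted p-values ran from 5.8e-18 to 7.1e-16.

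Its relative S100A8, the partner chain of calprotectin, showed another pattern. It read 8.90, 8.95, 8.93 and 8.85 in baseline, 9.50, 9.68, 9.69 and 9.66 in vehicle, and 11.40, 11.47, 11.44 and 11.43 with E2. Vehicle was thus already 0.72 ± 0.05 above the start, and the gain with E2 was 2.52 ± 0.05, or 5.75-fold from baseline against 3.49-fold from vehicle (an _s_at probe set, which can read more than 1 transcript). EGFL6, a secreted protein with EGF-like repeats, rose by 3.35 ± 0.10 from baseline with vehicle at 0.09 ± 0.10. The transcription factor EGR3 rose by 3.08 ± 0.13 from a dim baseline of 4.24 ± 0.14 (SD, n = 4), with vehicle at -0.08 ± 0.13. HEY2, a transcription factor downstream of Notch, rose by 2.21 ± 0.05, OLFML3, a secreted olfactomedin protein, by 2.14 ± 0.08, and DOCK10, an exchange factor for small GTPases with a dim baseline, by 2.10 ± 0.11. In vehicle these stood at 0.21 ± 0.05, -0.22 ± 0.08 and -0.57 ± 0.11. The dehydrogenase gene DHRS2 (2.15 ± 0.06) and ACOX2, an oxidase of the peroxisome (2.11 ± 0.06), rose while vehicle went the other way, by -0.55 ± 0.06 and -0.38 ± 0.06. RRM2, which completes the 12 largest gains, is described with the replication genes.

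The largest loss from the deprived state was in CACNA2D3, and OAS1 and GSTA3 were among the 12 largest. CACNA2D3, an auxiliary subunit of calcium channels, read 7.94, 7.99, 7.87 and 7.80 in baseline and 5.04, 4.81, 5.01 and 5.05 with E2, where it was dim. Its fall of 2.92 ± 0.06 came with vehicle at -0.02 ± 0.06, so the loss is the same by either reference within its error. OAS1, an interferon-induced sensor of double-stranded RNA, read 11.31, 11.21, 11.16 and 11.27 in baseline and 9.18, 9.10, 9.05 and 9.27 with E2, a fall of 2.09 ± 0.05 or 4.26-fold. Vehicle had risen by 0.34 ± 0.05, which makes the fall 5.39-fold when vehicle is the reference. GSTA3, a glutathione transferase, read 9.64, 9.70, 9.66 and 9.70 in baseline and 7.73, 7.65, 7.68 and 7.57 with E2, and its difference of -2.02 ± 0.03 is a 4.05-fold fall.

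Other large losses were those of SERHL2, a serine hydrolase-like gene with possible cross-hybridisation (-2.79 ± 0.04), and the cannabinoid receptor CNR1 (-2.49 ± 0.10, 1 of 3 probe sets called). ATP8A2, a phospholipid flippase, fell by 2.31 ± 0.06, the chemokine receptor CX3CR1 by 2.23 ± 0.10 and BAMBI, a pseudoreceptor that dampens TGF-beta signals, by 2.11 ± 0.07. GPRC5A, an orphan receptor, fell by 2.09 ± 0.07 and the kinase STK32B by 2.00 ± 0.06. The endocytic adaptor STON1 (-2.02 ± 0.09) and the lectin SIGLEC15 (-1.96 ± 0.04) complete the set. CNR1 and CX3CR1 were dim with E2. In 6 of these 12 losses vehicle was itself called above baseline, namely SERHL2, CNR1, ATP8A2, BAMBI, OAS1 and STON1, by 0.31 to 0.55. In 0 of the 12 was vehicle called below baseline. Across these 24 genes the adjusted p-values by limma ran from 4.8e-19 for SERHL2 to 3.9e-12 for DOCK10.

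**Figure D2:**
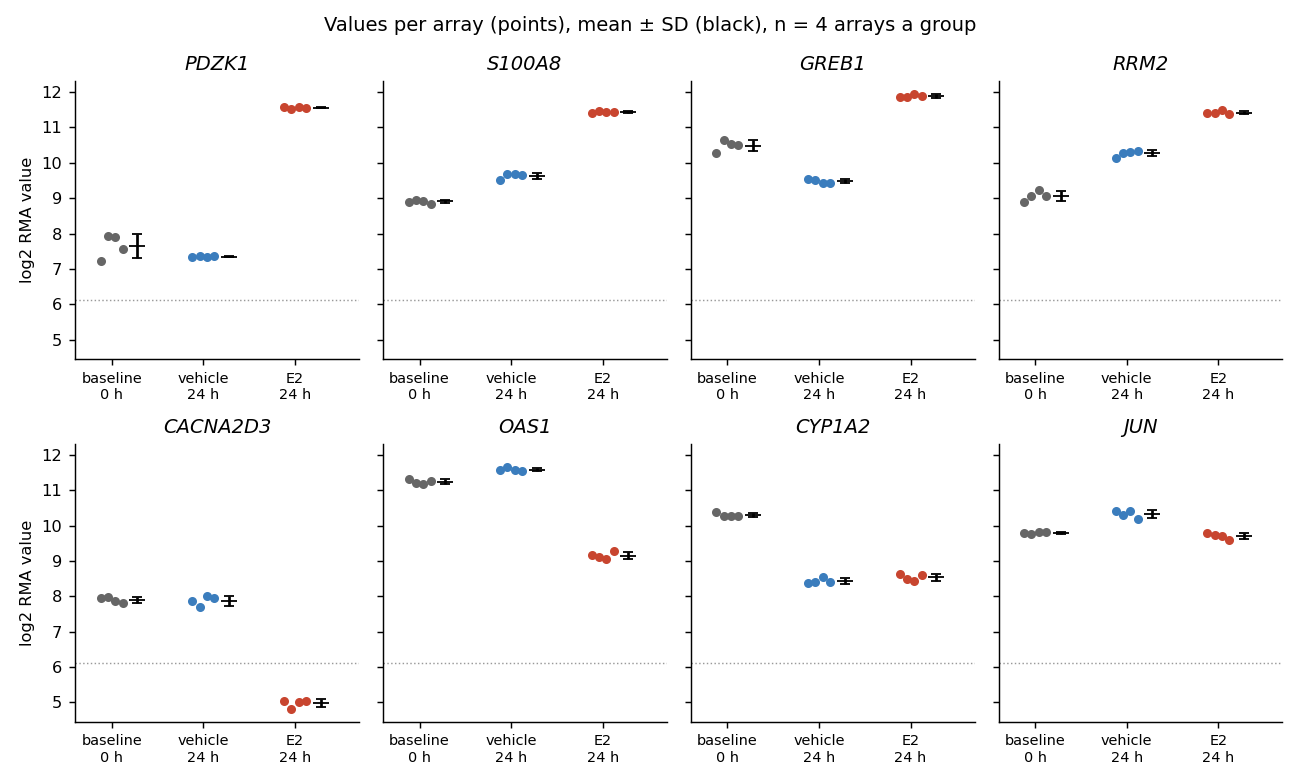
Log2 RMA values (vertical axis) of 8 genes in the baseline, vehicle 24 h and E2 24 h arrays; points are arrays, black bars are mean ± SD (n = 4) and the dotted line is the dim level of 6.11. PDZK1 and CACNA2D3 show vehicle near baseline and E2 far away, OAS1 shows vehicle above baseline and E2 far below, S100A8 and RRM2 show vehicle on the way to E2, GREB1 shows vehicle below baseline, CYP1A2 shows both 24 h groups at one low level, and JUN shows vehicle above the other groups.

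Mitotic genes gained from the deprived state as a group, and vehicle cells had made part of the same move. Of 83 measured members of 5 lists (mitotic entry, kinetochore and checkpoint, kinesins and spindle, cohesion and condensation with anaphase, and cytokinesis), 76 rose from baseline with E2 and 1 fell, against 19.2% and 22.4% of all genes. The fall was in CDC25B, a phosphatase that activates CDK1 (-0.23 ± 0.03). In vehicle 60 of the 83 rose and 0 fell, against 7.55% and 4.37% of all genes. Against vehicle 66 rose and 3 fell, against 21.5% and 24.2%. The median change of the 83 was 0.68 from baseline with E2, 0.31 from baseline in vehicle and 0.35 from vehicle with E2, beside medians over all genes of -0.01, -0.01 and 0.02.

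The level of the lists by array shows the steps. The mean over the mitotic genes was 8.69, 8.76, 8.76 and 8.73 in the baseline arrays A to D, 9.01, 9.04, 9.07 and 9.08 in vehicle at 24 h, and 9.37, 9.39, 9.39 and 9.35 in E2 at 24 h. The 3 groups did not overlap. At 3 h the means were 8.71 ± 0.02 in vehicle and 8.77 ± 0.05 with E2 (SD, n = 4), both overlapping baseline at 8.74 ± 0.03. For 53 of the 83 genes every vehicle array lay above every baseline array and every E2 array above every vehicle array, a pattern of 284 of all genes (2.37%). All 4 E2 arrays lay above all 4 baseline arrays for 75 mitotic genes (18.7% of all genes) and the vehicle arrays did so for 62 (11.5%).

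Few of the large mitotic gains were large by both references. Of 48 that rose at least 1.5-fold from baseline, 12 also did so from vehicle, 35 were called against vehicle by less and 1, KIF18B, was not called there. Among all 402 large gains the corresponding numbers were 302, 98 and 2. For those 35 genes the step with E2 beyond vehicle was called and under 1.5-fold.

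**Figure D3:**
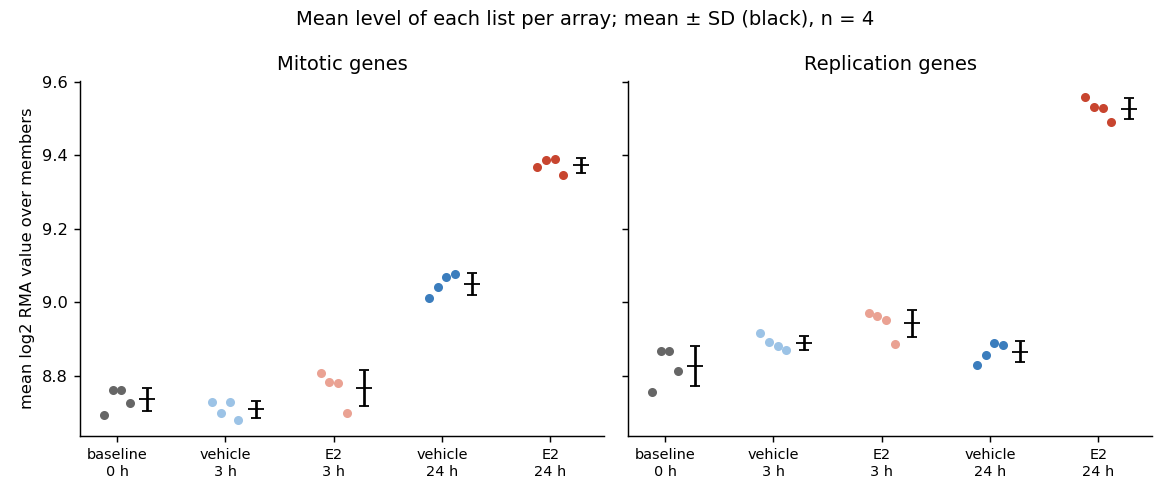
Mean log2 RMA value over the 83 mitotic genes (left) and the 48 replication genes (right) in each of the 20 arrays; points are arrays and black bars are mean ± SD (n = 4). Mitotic genes stood at 8.74 in baseline, 9.05 in vehicle at 24 h and 9.37 in E2 at 24 h, while replication genes stood at 8.83, 8.87 and 9.53.

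Among genes of mitotic entry, 17 of 19 rose from baseline with E2 and 11 rose in vehicle, beside 19.2% and 7.55% of all genes. CDK1, the kinase that starts mitosis, read 11.02, 11.08, 11.07 and 11.09 in baseline, 11.58, 11.63, 11.53 and 11.48 in vehicle, and 12.13, 12.08, 12.15 and 12.10 with E2. Its gain of 1.05 ± 0.04 is 2.07-fold, and the vehicle step of 0.49 ± 0.04 and the further step of 0.56 ± 0.04 were of similar size. Its cyclin partners moved less. CCNB1, on an _s_at probe set, rose by 0.55 ± 0.05 from 9.79, 9.86, 9.78 and 9.82 to 10.37, 10.34, 10.39 and 10.35, and CCNA2 rose by 0.88 ± 0.06 (vehicle 0.51 ± 0.06). AURKA, a kinase of the centrosome, rose by 0.51 ± 0.04 and its activator TPX2 by 0.71 ± 0.04, with vehicle at 0.33 ± 0.04 and 0.53 ± 0.04. PLK1 rose by 0.15 ± 0.05 (adjusted p = 0.012 by limma), with vehicle at 0.12 ± 0.05, which was not called. MYBL2, a transcription factor that works with MuvB at mitotic promoters, rose by 0.84 ± 0.06 and the CDK subunit CKS1B by 0.51 ± 0.03, and in neither was vehicle called. WEE1, the kinase that restrains CDK1, read -0.02 ± 0.03 from baseline with E2 while vehicle rose by 0.21 ± 0.03, and E2 differed from vehicle by -0.23 ± 0.03.

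At the kinetochore, the structure that ties chromosomes to the spindle, 18 of 19 genes rose from baseline with E2 and 14 in vehicle. Over all genes these shares were 19.2% and 7.55%. SPC25, a subunit of the NDC80 complex, had the largest mitotic gain. It read 6.40, 6.54, 6.71 and 6.55 in baseline, 7.26, 7.25, 7.36 and 7.41 in vehicle, and 8.08, 8.06, 8.07 and 7.95 with E2, with no overlap at either step. Its gain of 1.49 ± 0.06 is 2.80-fold, of which vehicle had made 0.77 ± 0.06. NDC80 itself rose by 0.93 ± 0.06 with vehicle at 0.71 ± 0.06. CENPM and CENPN, components of the inner kinetochore, rose by 1.10 ± 0.04 and 0.75 ± 0.03, and ZWINT by 0.92 ± 0.03, with smaller vehicle steps of 0.27, 0.30 and 0.22. The checkpoint genes BUB1 (0.68 ± 0.04, 3 of 5 probe sets called) and MAD2L1 (0.67 ± 0.04) and the late kinetochore gene CENPF (0.77 ± 0.04) rose too. KNL1, dim in every group, was not called (0.06 ± 0.07).

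CENPA, the histone H3 variant that marks centromeres, had a probe set that may cross-hybridise. It read 8.35, 8.53, 8.40 and 8.45 in baseline, 8.77, 8.92, 9.04 and 9.04 in vehicle, and 8.72, 8.79, 8.76 and 8.76 with E2. E2 therefore stood 0.33 ± 0.05 above baseline and 0.18 ± 0.05 below vehicle, both called, although its E2 and vehicle arrays overlapped. It is 1 of 10 genes that were higher than baseline and lower than vehicle, with APOBEC3B, a cytidine deaminase, and the clock gene PER3 among the others. The 5 genes with the reverse pattern were HSPA4L, MPV17, PPIC, RPP40 and UPP1, all by 0.16 or less below baseline. Those calls against baseline were lost for HSPA4L without E2 array A, C or D or baseline array A, C or D (adjusted p of 0.058 to 0.11 by limma), with a replicate block (0.0549) and after cyclic loess (0.063). They were lost for PPIC without E2 array D (0.057) and for UPP1 without E2 array A, C or D, baseline array A or C, or vehicle array C or D (0.051 to 0.17). The UPP1 call was also lost in the fit of the 12 arrays compared (0.062), after median centring (0.064) and after cyclic loess (0.085). The same held with its most variable probe set (0.051), a trended and robust variance prior (0.129) and array weights (0.075).

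All 20 genes of mitotic kinesins and the spindle rose from baseline with E2, and 18 rose in vehicle. The shares over all genes were 19.2% and 7.55%. NUSAP1, which bundles spindle microtubules, rose by 1.05 ± 0.04 from 9.82, 9.95, 9.94 and 9.94 to 10.91, 10.92, 11.00 and 10.99, and vehicle at 10.56 to 10.63 lay between. KIF15, a motor that helps keep the spindle bipolar, rose by 1.22 ± 0.08 with a vehicle step of 0.79 ± 0.08, and KIF11, the main motor of that kind, by 0.80 ± 0.06 with a vehicle step of 0.44 ± 0.06. Further gains were in KIF4A (0.68 ± 0.04), ASPM (0.71 ± 0.04), DLGAP5 (0.93 ± 0.06) and TUBB, a tubulin whose probe set may read other genes (0.82 ± 0.04). In this list 16 genes rose at least 1.5-fold from baseline and 0 did so from vehicle, beside 3.36% and 3.02% of all genes. KIF18B, a motor that shortens microtubules, rose by 0.61 ± 0.08 from baseline, with vehicle at 0.43 ± 0.08 and a difference from vehicle of 0.18 ± 0.08 (adjusted p = 0.061 by limma).

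Of 19 genes of cohesion, condensation and anaphase 15 rose from baseline with E2, and 13 in vehicle, beside 19.2% and 7.55% of all genes. The condensin subunits NCAPG (1.21 ± 0.05), NCAPG2 (1.16 ± 0.04) and SMC2 (0.96 ± 0.05), which compact chromosomes, rose with vehicle steps of 0.50, 0.43 and 0.28. MKI67, the proliferation antigen that coats mitotic chromosomes, read 7.21, 7.19, 7.41 and 7.42 in baseline, 7.85, 7.77, 7.82 and 7.87 in vehicle, and 8.37, 8.32, 8.39 and 8.32 with E2. Its gain of 1.04 ± 0.06 was divided evenly, 0.52 ± 0.06 in each step, and all 4 of its probe sets rose from baseline. TOP2A, which untangles DNA, rose by 0.74 ± 0.04 with a vehicle step of 0.47 ± 0.04, and ESPL1, the protease that opens cohesin, by 1.02 ± 0.06 with 0.64 ± 0.06. CDC20 (0.33 ± 0.07) and UBE2C (0.45 ± 0.03), which drive exit from mitosis, rose less. INCENP (0.11 ± 0.06) and ANAPC10 (0.07 ± 0.05) were not called.

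All 8 cytokinesis genes rose from baseline with E2, and 6 in vehicle, beside 19.2% and 7.55% of all genes. PRC1, which bundles the central spindle, read 9.58, 9.65, 9.67 and 9.64 in baseline, 9.99, 10.03, 10.09 and 10.11 in vehicle, and 10.70, 10.67, 10.67 and 10.71 with E2. Its gain of 1.06 ± 0.04 is 2.08-fold, and it was 1 of the 12 mitotic genes that also rose at least 1.5-fold from vehicle. RACGAP1 (0.81 ± 0.03), CEP55 (1.00 ± 0.05) and the centriole kinase PLK4 (0.87 ± 0.05) followed the same order of groups. KIF23, the motor partner of RACGAP1, did not. It read 7.86, 8.06, 8.04 and 8.02 in baseline, 8.66, 8.59, 8.65 and 8.58 in vehicle, and 8.56, 8.54, 8.54 and 8.45 with E2, so all 4 E2 arrays lay above baseline by 0.53 ± 0.04 and below vehicle by 0.10 ± 0.04, the latter not called (adjusted p = 0.075 by limma).

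**Figure D4:**
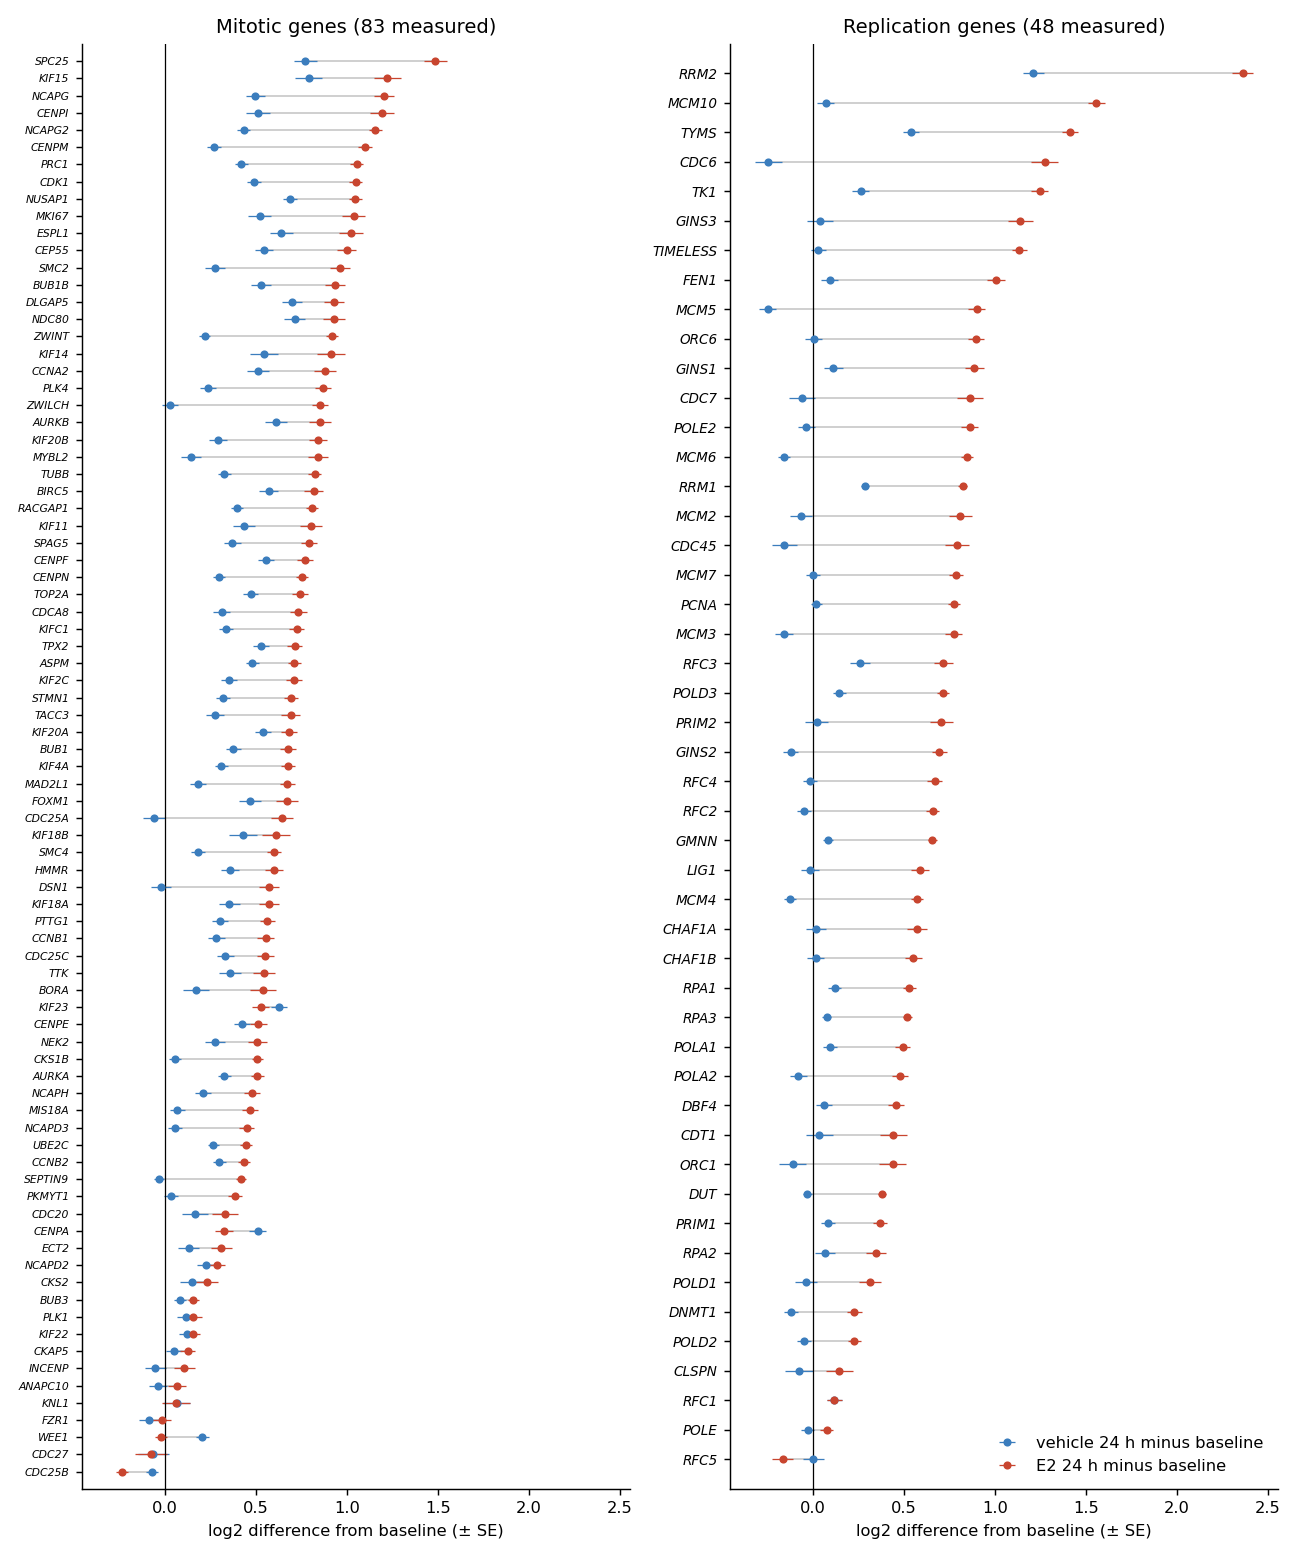
Log2 difference from baseline (horizontal axis, ± SE of the limma fit) of each of 83 mitotic genes (left) and 48 replication genes (right), in vehicle at 24 h (blue) and E2 at 24 h (red), ordered by the E2 value. The mitotic medians are 0.31 in vehicle and 0.68 with E2, and the replication medians are 0.01 and 0.68.

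Replication genes also gained from the deprived state as a group, while their median in vehicle stayed near the start. The lists that make up this group, given below, did not move alike in vehicle. Of 48 measured, 45 rose from baseline with E2 and 1 fell, against 19.2% and 22.4% of all genes. The fall was in RFC5, a subunit of the clamp loader (-0.17 ± 0.06). In vehicle 8 rose and 5 fell, against 7.55% and 4.37% of all genes. Against vehicle 46 rose and 1 fell, again RFC5, beside 21.5% and 24.2% of all genes. The fall of RFC5 depends on the probe set, since its most variable probe set rose by 0.89 and the mean of its probe sets by 0.52, both called. On the probe set used, the call was also lost without E2 array B or D or baseline array A, B or D (adjusted p of 0.055 to 0.076 by limma). It was lost too in the fit of the 12 arrays compared (0.057), after median centring (0.067) and after cyclic loess (0.062). The median change was 0.68 from baseline with E2, 0.01 from baseline in vehicle and 0.64 from vehicle with E2. The mean of the list was 8.76, 8.87, 8.87 and 8.81 in the baseline arrays, 8.83, 8.86, 8.89 and 8.88 in vehicle, and 9.56, 9.53, 9.53 and 9.49 with E2, so vehicle overlapped baseline and E2 stood clear of both. Of 28 replication genes that rose at least 1.5-fold from baseline, 24 did so from vehicle too. E2 stood above both references for 44 of the 48, and for 65 of the 83 mitotic genes, against 15.6% of all genes.

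Among the 20 genes of replication licensing and origin firing, 19 rose from baseline with E2, against 19.2% of all genes. The list median was 0.80. In vehicle 1 rose and 5 fell, against 7.55% and 4.37% of all genes, with a median of -0.06. MCM10, which helps to start the fork, read 7.80, 7.94, 7.96 and 7.86 in baseline, 7.96, 7.92, 8.0 and 7.96 in vehicle, and 9.51, 9.41, 9.41 and 9.46 with E2. Its gain of 1.56 ± 0.05 is 2.94-fold, and vehicle was not called. MCM6, a subunit of the replicative helicase, rose by 0.85 ± 0.03 from 11.04, 11.13, 11.16 and 11.09 to 12.01, 11.95, 11.94 and 11.91, while vehicle fell by 0.16 ± 0.03. The same order, vehicle below baseline and E2 above it, was called for MCM5 (-0.25 ± 0.05 and 0.90 ± 0.05), MCM3 (-0.16 and 0.77), MCM4 (-0.13 and 0.57) and the licensing factor CDC6 (-0.24 ± 0.07 and 1.27 ± 0.07). For these 5 helicase and licensing genes the change from vehicle exceeds the gain from the starting state. MCM2 (0.81 ± 0.06), the fork protection gene TIMELESS (1.13 ± 0.04) and GMNN, the inhibitor of relicensing (0.66 ± 0.03), rose as well, and CLSPN, which is dim, was not called (0.14 ± 0.08).

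At the fork and in nucleotide supply 26 of 28 genes rose from baseline with E2, against 19.2% of all genes. In vehicle 7 rose and 0 fell, against 7.55% and 4.37% of all genes, with a median of 0.02. The list mean was 9.16 to 9.24 in the baseline arrays and 9.28 to 9.33 in vehicle at 24 h, without overlap. PCNA, the sliding clamp, rose by 0.78 ± 0.03 from 11.87, 11.95, 12.02 and 11.97 to 12.73, 12.71, 12.73 and 12.75, with vehicle at 0.02 ± 0.03. The 3 largest vehicle changes of this list were in RRM2, TYMS and RRM1, which make deoxynucleotides. RRM2, the small subunit of ribonucleotide reductase, read 8.88, 9.06, 9.23 and 9.06 in baseline, 10.15, 10.28, 10.32 and 10.32 in vehicle, and 11.40, 11.42, 11.49 and 11.38 with E2. Its gain of 2.36 ± 0.06 is 5.15-fold, made of 1.21 ± 0.06 in vehicle and 1.15 ± 0.06 beyond it, and both probe sets rose. TYMS, thymidylate synthase, rose by 1.41 ± 0.04 (vehicle 0.54 ± 0.04, 1 of 2 probe sets called from baseline with E2), RRM1, the large subunit of the reductase, by 0.82 ± 0.02 (vehicle 0.29 ± 0.02). TK1, thymidine kinase, rose from 7.23 ± 0.07 to 8.47 ± 0.07, with vehicle at 7.49 ± 0.03 (SD, n = 4). POLE, a replicative polymerase, was not called (0.08 ± 0.04).

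G1 cyclins and E2F genes went in both directions. Of 20 measured, 12 rose from baseline with E2 and 3 fell, against 19.2% and 22.4% of all genes, with a median of 0.18. In vehicle 3 rose and 1 fell, against 7.55% and 4.37% of all genes. CCNE2, the cyclin E that rises at entry to S phase, read 9.09, 9.19, 9.20 and 9.22 in baseline, 9.49, 9.45, 9.45 and 9.30 in vehicle, and 10.45, 10.49, 10.47 and 10.43 with E2, a gain of 1.29 ± 0.04 or 2.44-fold. CDK2, its kinase partner, rose by 0.91 ± 0.04 (2 of 3 probe sets) with vehicle at 0.04 ± 0.04, and E2F8, a repressor of the family, by 0.91 ± 0.06 with vehicle at 0.33 ± 0.06. CCND1, the cyclin D of luminal cells, rose by 0.54 ± 0.05 from baseline and had fallen by 0.18 ± 0.05 in vehicle. E2F1, the activator of the family, rose by 0.20 ± 0.06 with vehicle at -0.07 ± 0.06. The 3 that fell were E2F5 (-0.65 ± 0.05, 1 of 2 probe sets), CDK6 (-0.42) and E2F3 (-0.34). E2F4 (0.08 ± 0.05) and E2F2, which is dim (-0.14 ± 0.10), were not called.

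Among CDK inhibitors and genes of quiescence more fell than rose. Of 17 measured, 9 fell from baseline with E2 and 4 rose, against 22.4% and 19.2% of all genes, the share that rose being near that over all genes. In vehicle 6 rose and 1 fell, against 7.55% and 4.37%. CITED2, a transcriptional coregulator, fell by 0.75 ± 0.05, CCNG2, a cyclin of arrested cells, by 0.59 ± 0.03, the stress gene SESN1 by 0.57 ± 0.04 and TXNIP, an inhibitor of thioredoxin, by 0.38 ± 0.03. CDKN1B, the CDK inhibitor p27, fell by 0.24 ± 0.03 with vehicle up by 0.11 ± 0.03. CDKN1A, the inhibitor p21, rose by 0.17 ± 0.04 from baseline, and vehicle rose by 0.26 ± 0.04, and E2 differed from vehicle by -0.09 ± 0.04 (adjusted p = 0.067 by limma). The other 3 that rose were CDKN1C (0.62), CDKN2D (0.48) and TOB1 (0.44). FOXO1 (-0.08 ± 0.04) and GAS1, which is dim (-0.15 ± 0.06), were not called.

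Classical estrogen-induced genes, a list drawn from ductal breast cancer lines, mostly rose above the deprived state. Of 34 measured, 27 rose from baseline with E2 and 4 fell, against 19.2% and 22.4% of all genes, with a median of 0.81. In vehicle 3 rose and 9 fell, against 7.55% and 4.37% of all genes, with a median of -0.08. The 20 that rose at least 1.5-fold from baseline did so from vehicle too. RET, a receptor tyrosine kinase, read 10.49, 10.60, 10.61 and 10.56 in baseline and 12.14, 12.11, 12.15 and 12.12 with E2, a gain of 1.56 ± 0.03 or 2.96-fold. IL17RB, a cytokine receptor with possible cross-hybridisation, rose by 1.60 ± 0.04 and the fatty acid elongase ELOVL2 by 1.53 ± 0.04. TFF1, a secreted trefoil peptide already at 13.50 in baseline, rose by 0.22 ± 0.02. The progesterone receptor gene PGR rose by 0.77 ± 0.14 and stayed dim at 4.99 ± 0.25 (SD, n = 4). The 4 that fell were CA12 (-0.39), STC2 (-0.36), ADORA1 (-0.19) and ADCY9 (-0.15), and RARA (0.05 ± 0.05) and CXCL12 (0.08 ± 0.07), which is dim, were not called on the probe sets used. With the most variable probe set of each gene both were (RARA 0.22, CXCL12 0.57).

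GREB1, an estrogen receptor cofactor and a classical target, shows how the reference sets the size. It read 10.27, 10.64, 10.52 and 10.50 in baseline, 9.55, 9.51, 9.42 and 9.44 in vehicle, and 11.86, 11.85, 11.95 and 11.89 with E2. Vehicle had lost 1.00 ± 0.07 over the 24 h, so the rise is 2.65-fold from the starting state and 5.31-fold from vehicle. Levels at 3 h were 10.09 in vehicle and 11.79 with E2. All 3 of its probe sets rose from baseline with E2.

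Of 18 estrogen-repressed genes of such lines, 11 fell from baseline with E2 and 3 rose, against 22.4% and 19.2% of all genes, with a median of -0.54, and 9 of the 11 fell at least 1.5-fold by both references. In vehicle 7 rose and 2 fell, against 7.55% and 4.37% of all genes, with a median of 0.06. BIK, a pro-apoptotic gene, read 12.05, 11.99, 11.98 and 11.99 in baseline, 12.05, 12.08, 12.11 and 12.04 in vehicle, and 10.68, 10.67, 10.50 and 10.62 with E2, a fall of 1.38 ± 0.04. The cholesterol exporter ABCG1 fell by 1.46 ± 0.05, BCAS1 by 1.24 ± 0.03 and the ephrin EFNA1 by 1.19 ± 0.03, while vehicle rose by 0.19 ± 0.05, 0.24 ± 0.03 and 0.15 ± 0.03. The 3 that rose were RAB31, a trafficking GTPase (1.00 ± 0.05), the keratin KRT15 (0.71) and the mucin MUC1 (0.12). The MUC1 call was lost without E2 array A or C or baseline array B, C or D (adjusted p of 0.0533 to 0.0595 by limma), and with its most variable probe set (0.36). NR2F1, which is dim (-0.18 ± 0.09), and IL1R1 (0.07 ± 0.04) were not called.

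CYP1A2, a cytochrome P450 that oxidises estradiol, lost expression in both 24 h groups. It read 10.37, 10.26, 10.26 and 10.26 in baseline, 8.38, 8.41, 8.55 and 8.39 in vehicle, and 8.63, 8.49, 8.42 and 8.61 with E2. The loss was 1.75 ± 0.05 with E2 and 1.85 ± 0.05 in vehicle, and the groups at 24 h differed by 0.10 ± 0.05 (adjusted p = 0.14 by limma). Its probe set may cross-hybridise, and both probe sets of the gene fell. At 3 h it stood at 10.00 in vehicle and 10.10 with E2. A trio of aldo-keto reductases, chosen after their values were seen, fell in vehicle and further with E2. AKR1C1, which inactivates progesterone, read 12.79, 12.81, 12.76 and 12.78 in baseline, 12.09, 12.09, 12.10 and 12.11 in vehicle, and 11.59, 11.57, 11.58 and 11.47 with E2. Its near-identical relative AKR1C2 fell by 1.32 ± 0.03 with vehicle at -0.72 ± 0.03, and probe sets of this pair may read both genes. AKR1B10, a reductase of retinal and aldehydes, fell by 0.95 ± 0.05 with vehicle at -0.57 ± 0.05.

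In 6 genes with a large difference between E2 and vehicle, E2 was not called against baseline. JUN, a subunit of AP-1, read 9.79, 9.77, 9.82 and 9.81 in baseline, 10.41, 10.29, 10.41 and 10.19 in vehicle, and 9.78, 9.73, 9.71 and 9.58 with E2, and cross-hybridisation is possible. Vehicle rose by 0.53 ± 0.05 and E2 read -0.10 ± 0.05 from baseline (adjusted p = 0.17 by limma), although 2 of 4 JUN probe sets were called lower, as was JUN with its most variable probe set (0.0208) or the mean of its probe sets (0.0306). The cytochrome CYP4B1 (vehicle 0.66 ± 0.06, E2 0.05 ± 0.06) and the pseudogene CMAHP (0.57 ± 0.10 and -0.18 ± 0.10, 1 of 2 probe sets called lower with E2) had the same form, as did LGI1 (0.48 ± 0.09 and -0.20 ± 0.09) and KCNJ13 (0.49 ± 0.12 and -0.15 ± 0.12), both dim in baseline and with E2. In a fit of the 12 arrays compared alone, E2 was called below baseline for CMAHP (adjusted p = 0.025 by limma) and LGI1 (0.0325). TEX14, which encodes a protein of intercellular bridges in germ cells, was the reverse, with vehicle at -0.60 ± 0.08 and E2 at 0.13 ± 0.08. A p over the threshold does not show that E2 returned these genes to the starting level.

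In a further set vehicle and E2 moved apart from the start in opposite directions, so that both references give a change and the vehicle reference gives the larger one. ATRNL1, a transmembrane attractin-like protein, read 7.17, 7.41, 7.39 and 7.02 in baseline, 6.21, 6.10, 6.11 and 6.41 in vehicle, and 8.81, 8.70, 8.67 and 8.59 with E2, a rise of 1.45 from baseline and 2.49 from vehicle. HDC, histidine decarboxylase, read 8.89, 8.86, 8.93 and 8.89 in baseline, 9.68, 9.63, 9.70 and 9.72 in vehicle, and 7.17, 7.08, 7.17 and 7.09 with E2, a loss of 3.39-fold from baseline and 5.87-fold from vehicle. The trypsin inhibitor SPINK4 rose by 1.03 with E2 and fell by 0.75 in vehicle, the fatty acid elongase ELOVL6 by 0.53 ± 0.04 in each direction, and PDLIM3, a scaffold of the cytoskeleton, rose by 0.54 ± 0.06 against -0.49 ± 0.06 in vehicle. The transporter ABCA4 fell by 0.51 ± 0.04 with vehicle up by 0.55 ± 0.04. SCGB1D2, a secretoglobin, read 0.59 ± 0.03 from baseline in vehicle and -0.16 ± 0.03 with E2. These 7 genes and RAB31 were chosen after their values were seen. The 8 genes that fell at least 1.5-fold in vehicle (0.0669% of all genes) were CYP1A2, ATRNL1, GREB1, SPINK4, AKR1C2, AKR1C1, RAB31 and TEX14. Of the 29 that rose so far (0.242% of all genes), 8 were among the 83 mitotic genes measured.

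Genes of cholesterol synthesis and uptake stood slightly above the starting state. Of 18 measured, 13 rose from baseline with E2 and 1 fell, against 19.2% and 22.4% of all genes, the latter INSIG1, a retention protein of the pathway (-0.15), with a median of 0.20. In vehicle 1 rose and 9 fell, beside 7.55% and 4.37% of all genes, with a median of -0.13. Against vehicle 14 rose and 2 fell, beside 21.5% and 24.2% of all genes, with a median of 0.40. ACAT2, a thiolase, rose by 0.67 ± 0.03 from baseline while vehicle fell by 0.23 ± 0.03. EBP (0.50 ± 0.03, vehicle -0.16), IDI1, where other transcripts may be read too (0.47 ± 0.03, vehicle -0.16), FDPS (0.48 ± 0.03, vehicle -0.16) and HMGCS1 (0.23 ± 0.05, vehicle -0.22 ± 0.05), all enzymes of the pathway, had the same order. LSS (0.06 ± 0.03) and MVK (0.07 ± 0.04) were not called.

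**Figure D5:**
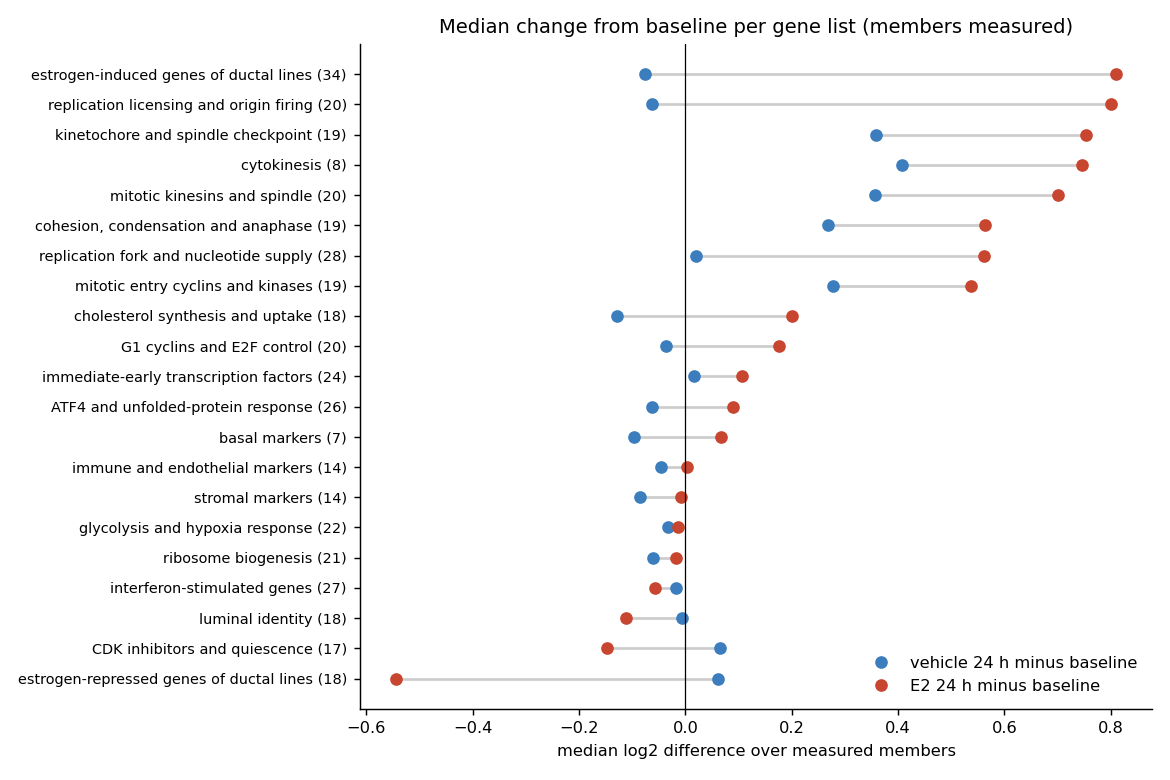
Median log2 difference from baseline over the measured members (number in brackets) of each gene list, in vehicle at 24 h (blue) and E2 at 24 h (red). Estrogen-induced and replication lists lie near 0 in vehicle, and the mitotic lists lie between 0.27 and 0.41 in vehicle. The cholesterol, CDK inhibitor and estrogen-repressed lists lie on opposite sides of 0 in vehicle and E2. So do the licensing, estrogen-induced, G1 cyclin, ATF4, basal, and immune and endothelial lists.

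ESR1, GATA3 and CDH1 each moved by under 1.5-fold from the start. ESR1, the estrogen receptor gene, fell by 0.15 ± 0.03 (6 of 9 probe sets called lower), GATA3, a luminal transcription factor, by 0.42 ± 0.04 (3 of 3), and CDH1, the E-cadherin gene that is typically lost in lobular tumours, rose by 0.32 ± 0.05 (1 of 2). In vehicle ESR1 and GATA3 were not called (0.02 ± 0.03 and 0.09 ± 0.04), and CDH1 read 0.15 ± 0.05.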

How the data were processed

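Total RNA of 20 SUM44 cultures was measured on Affymetrix human expression arrays. The authors deposited log2 values per probe set, made with the affy package's RMA method, per the submitters' processing notes, with no version or parameter given in the sources used here. RMA equalises array distributions (medians 7.40 to 7.45), so shifts in a cell's total RNA are not seen, and dim signals are compressed. Precision is limited by the number of arrays.

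Of 22277 probe sets, 62 controls, 1043 with several symbols and 2108 with none in the platform annotation were left out. Of 19064 with 1 symbol, 19052 matched the RefSeq gene table by Entrez number, with 0 symbols changed. Each gene was read from its brightest probe set by mean over all arrays, giving 11963 genes, 4310 with a choice of probe sets. No detection filter was applied. Columns of other samples numbered 0.

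limma 3.58.1 in R 4.3.3 (lmFit, eBayes, two-sided) fitted all 20 arrays with 1 mean per group, and p-values were Benjamini-Hochberg adjusted over all genes. Simulated arrays served to check the calls of the E2 and baseline comparison alone. The vehicle comparisons and the sorting by both references were not checked in that way. The labels do not say what the replicate letters mark, so no block was used in the main fit. Correlations of same-letter deviations were -0.05 to 0.22 for E2 24 h with baseline, against -0.22 to 0.13 for other letters. For E2 24 h with vehicle they were -0.19 to -0.02, against -0.07 to 0.13. With 4 arrays a group these values cannot show whether the letters pair arrays. Alternatives covered the arrays fitted, the block, scaling, dim genes, probe set choice, variance prior, array weights, thresholds and single arrays.

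Named genes were the 12 largest gains and losses without overlap of arrays, up to 6 per direction in each class that the references disagreed on, up to 4 called and 2 uncalled members per list by smallest p, and a fixed set of 34. Members, lists and rules were chosen with earlier results of these data known. Outside that rule, and chosen after their values were seen, are the genes said to be so, the uncalled or opposite members listed to complete a count, and NDC80, KIF15, DLGAP5, CENPA, ESPL1, CDC6, MCM3, MCM4, CDKN1C, APOBEC3B, PER3, OAS2, SAMD9, IFIT5, MYC, DUSP1, SLC7A11, EGLN3, KRT8, KRT18 and CLDN3.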

Additional observations from a re-analysis of the deposited data

Results flagged for a closer look

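Single arrays stood apart from the other 3 of their group in 40 of the 594 pairs of a named gene and a group that were looked at (198 genes in baseline, vehicle at 24 h and E2 at 24 h). An array was counted when its gap to the nearest other array took up nearly the whole range of the group, which chance gives in about 1 of 20 groups. Values are log2 levels, and each gap can be small where the other 3 arrays lie close together.

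Baseline array A stood apart most often, for 9 genes. It was low for the mitotic genes CENPM (7.42), ZWINT (10.93), NUSAP1 (9.82) and RACGAP1 (10.46), for the reductase subunit RRM1 (10.84) and for RAB31 (10.44), and high for CYP1A2 (10.37), BIK (12.05) and MUC1 (12.01). Baseline array B was high for EBP (10.47), IDI1 (12.16) and SLC7A5 (11.44). Baseline array C was low for SPARC (10.82) and LSS (9.52), and baseline array D was low for ISG20 (8.20).

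Among the E2 arrays at 24 h, array D was low for EGR3, at 6.82 against 7.43 to 7.53 in the others, the widest gap of the 40. It was also low for RPP40 (8.16), CCNG2 (11.26) and AKR1C1 (11.47) and high for MYBL2 (8.42). E2 array C was high for CENPM (8.71) and RACGAP1 (11.39), E2 array B for S100A7 (11.82) and E2 array A for CDKN2D (6.93).

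In vehicle at 24 h, array D was high for BUB1 (9.01), the dim KNL1 (3.66), KIF15 (8.39), CDK6 (6.82) and ADCY9 (8.78) and low for EGR3 (4.07) and E2F8 (9.20). Vehicle array A was high for the dim LYZ (4.86) and for WEE1 (11.58), and low for S100A8 (9.50), MPV17 (10.09) and CDC20 (7.97). Vehicle array B was low for MCM4 (8.90) and high for the dim CLSPN (4.80), and vehicle array C was low for RARA (6.91) and high for ZFP36 (8.25).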

How the results depend on the processing

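Of 198 genes named here, 23 crossed the threshold under at least 1 of 22 alternatives, and RFC5 alone changed direction, at 0.89 with the most variable probe set and 0.52 with the mean of its probe sets. With a replicate block 4949 genes were called against baseline, 1410 in vehicle against baseline and 5479 against vehicle, mitotic gains stayed at 76, vehicle gains of replication genes went from 8 to 6, no call count moved by over 1.5 times, and HSPA4L alone among the genes named lost its call against baseline (adjusted p = 0.0549 by limma). Genes not called in the fit of all arrays that passed with 1 array left out were POLE and IFIT2 (E2 D), E2F4 (E2 A), FOXO1 (E2 B), INCENP (baseline C), GAS1 (vehicle D) and PHGDH (E2 A, baseline D or vehicle D), with adjusted p-values by limma from 0.0061 to 0.046. Changes of fit or scaling gave such calls too. SPDEF passed with the 12 arrays compared, without the dimmest 25% of genes, with a trended and robust prior and with array weights. LSS and POLE passed after median centring, after cyclic loess and with array weights, and EDEM1 after cyclic loess. GAS1 passed with the 12 arrays compared, after cyclic loess and with array weights. PHGDH and IFIT2 passed with the robust prior and with array weights, and PHGDH also without the dim genes. At an adjusted p of 0.01 PLK1, PECAM1, HSPA4L, PPIC, UPP1, RFC5, MUC1 and INSIG1 were not called, and vehicle against baseline gave 784 genes. With 2-fold as the size of a large change, 105 higher and 92 lower genes passed by both references, 32 and 7 were smaller against vehicle, and 25 and 42 were smaller against baseline. With a 25% difference as that size these were 727 and 783, 150 and 97, and 103 and 199. Leaving out 1 array in turn gave 4631 to 4973 genes called against baseline (2131 to 2289 higher, 2453 to 2684 lower), 1111 to 1522 in vehicle and 5008 to 5458 against vehicle. The classes then held 297 to 314 higher and 295 to 318 lower genes by both references, 89 to 108 and 32 to 38 smaller against vehicle, and 47 to 63 and 79 to 98 smaller against baseline. Mitotic genes higher than baseline numbered 75 to 77, in vehicle 60 to 62 and against vehicle 65 to 68, and replication genes 44 to 45, 6 to 8 and 44 to 46. Higher genes were 46.1% of those called as deposited, 49.4% with arrays centred on their medians and 51.3% after cyclic loess, so the split has no settled direction. Signals near background limit what can be read from the genes called dim.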

Other observations

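Gene lists of stress, metabolism and cell identity moved from the starting state in both directions, with no common shift. Of 26 genes of the ATF4 and unfolded-protein responses, 12 rose from baseline with E2 and 7 fell, beside 19.2% and 22.4% of all genes. In vehicle 0 rose and 7 fell, beside 7.55% and 4.37% of all genes. Chaperones of the endoplasmic reticulum were among those that rose, with HSPA5, the main luminal chaperone, up by 0.33 ± 0.03 and SDF2L1 by 0.47 ± 0.04, as was the amino acid transporter SLC7A5 (0.51 ± 0.04). DDIT4, an inhibitor of mTORC1 signalling, fell by 0.76 ± 0.05 and the cystine transporter SLC7A11 by 0.71 ± 0.09. PHGDH (-0.09 ± 0.04) and EDEM1 (0.07 ± 0.04) were not called. In the glycolysis and hypoxia list 7 of 22 rose from baseline with E2 and 6 fell, beside 19.2% and 22.4% of all genes. In vehicle 3 rose and 5 fell, beside 7.55% and 4.37% of all genes. With E2, PFKFB3, which makes the activator of glycolysis, rose by 0.85 ± 0.05 and VEGFA by 0.55 ± 0.04. NDRG1 fell by 0.93 ± 0.03 and the prolyl hydroxylase EGLN3 by 0.81 ± 0.09. Ribosome biogenesis genes hardly moved from the start, all by 0.25 or less. Of 21 measured, 3 were higher and 6 lower with E2, near the 19.2% and 22.4% of all genes. In vehicle 0 were higher and 5 lower, beside 7.55% and 4.37% of all genes. With E2 the nucleolar methyltransferase FBL read -0.25 ± 0.04 from baseline and nucleolin, NCL, 0.16 ± 0.03.

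Most interferon-stimulated genes did not follow OAS1 below baseline. Of 27 measured, 6 fell and 4 rose from baseline with E2, close to the 22.4% and 19.2% of all genes. In vehicle 1 fell and 3 rose, beside 4.37% and 7.55% of all genes. The list mean, OAS1 included, was 7.04 to 7.09 in the E2 arrays, below baseline (7.13 to 7.20) and vehicle at 24 h (7.13 to 7.18). The median change of the 27 with E2 was -0.06 from baseline and -0.03 from vehicle, and a mean without OAS1 was not taken. OAS1 was the 1 large change, and after it came OAS2 (-0.58 ± 0.10), the antiviral factor SAMD9, dim in baseline (0.49 ± 0.08), ISG20, an exonuclease (0.48 ± 0.07), and IFIT5 (-0.48 ± 0.08). IFIT2 (-0.23 ± 0.10) and the dim IFI44 (0.12 ± 0.07) were not called. Against vehicle 7 of the 27 fell and 5 rose, beside 24.2% and 21.5% of all genes. Of these, 4 fell at least 1.5-fold, against 3.33% of all genes, and 0 rose so far. Of 24 immediate-early transcription factor genes 10 rose and 4 fell, against 19.2% and 22.4% of all genes, so the share that fell is no larger than over all genes. In vehicle 7 rose and 1 fell, beside 7.55% and 4.37% of all genes. Beside EGR3 the risers included MYC (0.91 ± 0.09), MAFF (0.64 ± 0.06) and the mRNA decay factor ZFP36 (0.62 ± 0.06), while the phosphatase DUSP1 fell by 0.69 ± 0.07. Luminal identity genes split into 8 that rose and 8 that fell of 18, against 19.2% and 22.4% of all genes. In vehicle 4 rose and 3 fell, beside 7.55% and 4.37% of all genes. The simple epithelial keratins KRT19 (0.50 ± 0.04), KRT8 and KRT18 rose from baseline and were each called lower in vehicle, whereas KRT7 (-0.64 ± 0.04, the 1 member past 1.5-fold) and the tight junction genes CLDN4 (-0.55 ± 0.04) and CLDN3 fell. SPDEF (-0.12 ± 0.05) and PRLR (-0.10 ± 0.10) were not called.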
